A study of Mus musculus with 2 samples.

Results

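The synaptic vesicle release machinery was described here as 35 mouse genes, out of 43346 Ensembl genes in the deposited tables. They were chosen by symbol as vesicle proteins, SNAREs, active zone proteins and regulators of release, and every symbol matched a single gene. Total RNA was sequenced from the hindbrain of embryos at embryonic day 11.5 (E11.5), in 1 group of 2 biological replicates. Both replicates were healthy tissue of strain B6NCrl with males and females mixed, and the labels name no treatment, mutation or second stage. Pool 1 held the hindbrains of 109 embryos and pool 2 those of 88, so embryo-to-embryo variation was averaged within each library. The input per library was 10 ng of RNA above 200 nt in size, to which spike-in RNA controls were added. With a single group there was no contrast of conditions and no test, and the data give the level of each gene and the difference between the pools, always as pool 1 over pool 2.

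Neurotransmitter is released when vesicles filled with transmitter fuse with the presynaptic membrane. The vesicle SNARE synaptobrevin (Vamp) zips together with syntaxin and SNAP-25 on the plasma membrane, synaptotagmins sense calcium, and scaffold proteins of the active zone hold vesicles and calcium channels at the release site. Many of these proteins are known to be made in young neurons before synapses mature, where related fusion events insert membrane into growing axons.

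Depth came to 45340440 expected counts (estimated read numbers per gene) for pool 1 and 41261544 for pool 2. Ensembl genes took 41982915 and 36833678 of these. Spike-ins held 16.2% of the TPM, an abundance normalised for transcript length and library size, in pool 1 and 22.2% in pool 2. Neuron markers were abundant, with all 11 detected and summed levels of 2610 TPM in pool 1 and 2300 TPM in pool 2, led by Tubb3 at 762 and 654 TPM. Of 9 markers of hindbrain position 7 were detected, led by Hoxa2 at 49.3 TPM in pool 1 and 48.1 TPM in pool 2. Progenitors were also present, with all 9 of their markers detected and Vim at 1053 TPM in pool 1 and 1018 TPM in pool 2. Of 6 markers of mature glia 3 were detected, with Gfap at 0.15 TPM in pool 1 and 0.08 TPM in pool 2. Blood, vessel, macrophage and mesenchyme markers were each detected in both pools (6 of 6 in every list), with Hbb-y at 7661 and 7091 TPM, Cldn5 at 23.6 and 17.4 TPM, C1qb at 25.9 and 27.7 TPM and Col3a1 at 244 and 221 TPM. In such bulk tissue, fewer cells of a type and less RNA per cell cannot be told apart.

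Nearly all of the 35 release genes chosen here were transcribed at this stage. Of the 35 genes, 34 reached 1 TPM in pool 1 and in pool 2 alike, and the exception was Sv2b. At the same threshold 33.0% of all Ensembl genes and 59.4% of protein-coding nuclear genes were detected. The 35 genes were chosen with earlier results of these data known, so their count is not independent of these data. Of 82 further genes that act with them, 71 were detected. The median level over the 35 genes was 9.60 TPM in pool 1 and 9.41 TPM in pool 2 (9.50 ± 0.134, SD, n = 2). That was above the median over all protein-coding nuclear genes, 3.93 and 3.75 TPM, and below the median over the 13020 expressed ones, whose mean TPM reached 1, 17.7 and 16.3 TPM. Only 11 of the 35 exceeded the median expressed protein-coding gene.

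The levels spanned more than 2 orders of magnitude. By mean TPM, 2 genes were at 100 or more, 15 between 10 and 100, 17 between 1 and 10, and 1 below 1. The summed level was 789 TPM in pool 1 and 772 TPM in pool 2, and the 5 most abundant genes (Snap47, Syt11, Rab3a, Vamp3 and Vamp2) held 56.5% and 55.3% of it. The genes lie on 17 chromosomes. Counting depth was high for most of them, since 33 had over 100 expected counts in both pools and the lowest, Sncb, had 56 and 52.

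**Figure D1:**
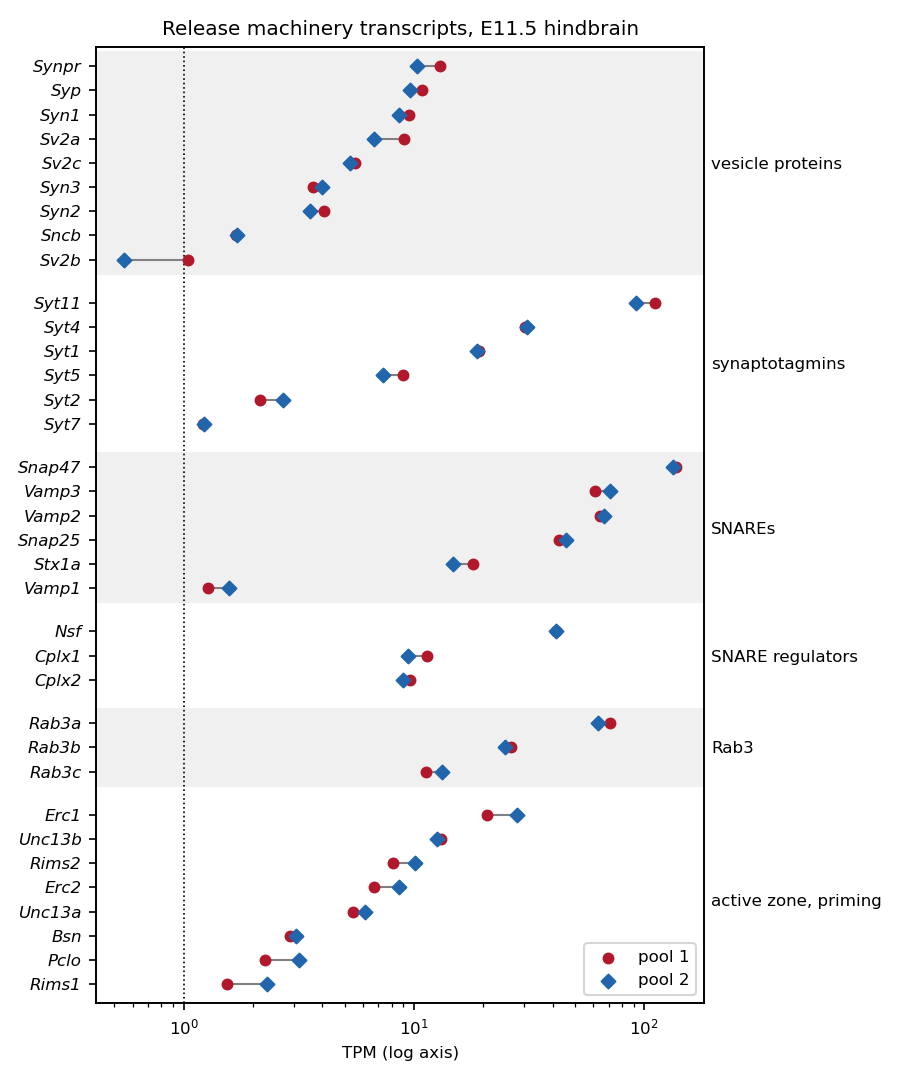
Level of each of the 35 release genes in TPM (log axis) in pool 1 (red circles) and pool 2 (blue diamonds), grouped by role, with a dotted line at the detection threshold of 1 TPM. The points of a gene lie close together compared with the differences between genes, Snap47 and Syt11 stand highest, and Sv2b is the gene with a point left of the line.

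The SNAREs were the most abundant group, with a summed level of 325 TPM in pool 1 and 334 TPM in pool 2 over 6 genes. Snap47 (ENSMUSG00000009894, chr11:59407134-59451186, minus strand, GRCm38), a SNAP-25 relative found on intracellular membranes of many cell types, led all 35 genes with 138 TPM in pool 1 and 134 TPM in pool 2 (136 ± 3.04, SD, n = 2). That placed it above 92.6% of expressed protein-coding genes. Snap25 (ENSMUSG00000027273, chr2:136713453-136782428, plus strand), the neuronal target-membrane SNARE that is cut by several botulinum toxins, had 42.6 TPM in pool 1 and 45.8 TPM in pool 2 (44.2 ± 2.23, SD, n = 2). The difference between these 2 genes was many times the spread between pools, and of their summed TPM Snap47 held 76.4% in pool 1 and 74.5% in pool 2.

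The vesicle SNAREs split in a different way. Vamp2, synaptobrevin 2 of synaptic vesicles, had 64.0 TPM in pool 1 and 67.2 TPM in pool 2. Vamp3, the cellubrevin of general endosomal traffic, had 60.8 TPM in pool 1 and 70.9 TPM in pool 2. The pair could not be ordered. Of the summed TPM of Vamp1, Vamp2 and Vamp3, Vamp2 held the larger share in pool 1 (50.8% against 48.2%). Vamp3 held the larger share in pool 2 (50.8% against 48.1%). Vamp1, the synaptobrevin best known from motor circuits of the spinal cord and brainstem, had 1.28 TPM in pool 1 and 1.57 TPM in pool 2, and its share was 1.07% ± 0.0773 (SD, n = 2). Stx1a, a syntaxin of the presynaptic plasma membrane, had 18.1 TPM in pool 1 and 14.8 TPM in pool 2 (16.4 ± 2.29, SD, n = 2).

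Snap25 carries a pair of alternative forms of its exon 5, of which each mRNA uses a single copy. The product with the upstream copy is known as SNAP-25a and prevails early in rodent brain development, and that with the downstream copy is SNAP-25b, the main form of the adult brain. Both copies are shown because they are what separates the coding sequence of the main transcripts. They are 118 bases long, lie on the plus strand of chromosome 2 with 196 bases between them, and differ at 31 bases (73.7% identity), which are in capitals. Sequences are from GENCODE vM21 transcripts in GRCm38 coordinates, with the downstream copy, chr2:136770057-136770174, first and the upstream copy, chr2:136769743-136769860, second.
Snap25-201 exon 5: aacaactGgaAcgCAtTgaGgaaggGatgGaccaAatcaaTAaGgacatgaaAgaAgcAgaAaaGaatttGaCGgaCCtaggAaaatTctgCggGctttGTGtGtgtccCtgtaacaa
Snap25-202 exon 5: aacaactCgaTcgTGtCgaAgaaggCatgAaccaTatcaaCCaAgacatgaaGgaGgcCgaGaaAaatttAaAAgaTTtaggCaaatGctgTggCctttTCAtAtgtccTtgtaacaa

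Transcript Snap25-201, with the downstream copy, held 84.7% of the gene's TPM in pool 1 and 86.9% in pool 2. Transcript Snap25-202, with the upstream copy, held 12.8% in pool 1 and 10.9% in pool 2. The model of Snap25-201 also runs 1077 bases further in its last exon, and Snap25-202 rested on 147 and 129 expected counts. These shares are estimates by the authors' quantification and do not separate use of the exon from use of the longer 3′ end.

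Among the regulators of SNARE assembly, Nsf, the ATPase that takes used SNARE complexes apart, was the most abundant with 41.5 TPM in each pool (41.5 ± 0.0141, SD, n = 2). Cplx1, complexin 1, had 11.4 TPM in pool 1 and 9.41 TPM in pool 2. Cplx2, complexin 2, had 9.60 TPM in pool 1 and 8.97 TPM in pool 2. Complexins bind the assembled SNARE bundle and act on calcium-triggered fusion. Cplx1 was above Cplx2 in both pools. Their means, 10.4 ± 1.42 TPM for Cplx1 and 9.29 ± 0.445 TPM for Cplx2 (SD, n = 2 each), did not differ beyond the spread between pools.

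The synaptotagmins, calcium-binding and related membrane proteins of vesicles, summed to 174 TPM in pool 1 and 153 TPM in pool 2. Syt11 (ENSMUSG00000068923, chr3:88744700-88775164, minus strand), a form that does not bind calcium and is known from vesicle recycling, had 112 TPM in pool 1 and 92.3 TPM in pool 2 (102 ± 13.8, SD, n = 2). It held 62.3% ± 2.97 of the summed TPM of these 6 (SD, n = 2), in both pools more than the other 5 together. Syt4, a form of dense-core vesicles and the Golgi, followed with 30.2 TPM in pool 1 and 30.9 TPM in pool 2.

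The classical fast calcium sensors were at lower levels. Syt1, the sensor for synchronous release in forebrain neurons, had 19.2 TPM in pool 1 and 18.8 TPM in pool 2. Syt2, the corresponding sensor of many mature hindbrain and spinal synapses, had 2.15 TPM in pool 1 and 2.69 TPM in pool 2. Between these sensors Syt1 stood clearly above Syt2, at 19.0 ± 0.290 against 2.42 ± 0.382 TPM (SD, n = 2 each). Syt5, another calcium-binding form, had 8.95 TPM in pool 1 and 7.32 TPM in pool 2. Syt7, a high-affinity sensor of asynchronous release and facilitation, was the lowest of the 6 with 1.21 TPM in pool 1 and 1.23 TPM in pool 2. The order Syt11, Syt4, Syt1, Syt5, Syt2, Syt7 was the same in both pools, and each neighbouring pair differed by more than the spread between pools.

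The proteins of the vesicle membrane and those bound to its surface were lower as a group, with a median of 5.53 TPM in pool 1 and 5.28 TPM in pool 2 over 9 genes. Synpr, synaptoporin, had 13.0 TPM in pool 1 and 10.3 TPM in pool 2. Syp, synaptophysin, the abundant tetraspan protein widely used as a synapse marker, had 10.8 TPM in pool 1 and 9.56 TPM in pool 2. Synpr was above Syp in both pools. The means of these relatives, 11.7 ± 1.91 TPM for Synpr and 10.2 ± 0.898 TPM for Syp (SD, n = 2 each), did not differ beyond the spread between pools.

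Of the synapsins, phosphoproteins that tether vesicles in the reserve pool, Syn1 had 9.54 TPM in pool 1 and 8.57 TPM in pool 2. Syn2 had 4.06 TPM in pool 1 and 3.55 TPM in pool 2. Syn3, the form best known from immature neurons, had 3.64 TPM in pool 1 and 4.0 TPM in pool 2. Syn1 held 54.3% ± 1.54 of the synapsin TPM, while Syn2 and Syn3, at 22.8% ± 1.08 and 23.0% ± 2.62 (SD, n = 2 each), could not be ordered. Syn3 shares 1733 exon bases with Timp3 on the opposite strand, a gene at 24.7 TPM in pool 1 and 21.8 TPM in pool 2, and no source used here gives the strand setting of the counting.

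The SV2 glycoproteins, transporter-like proteins of the vesicle membrane, covered a wide range. Sv2a, the target of the drug levetiracetam, had 9.09 TPM in pool 1 and 6.71 TPM in pool 2. Sv2c had 5.53 TPM in pool 1 and 5.28 TPM in pool 2. Sv2b (ENSMUSG00000053025, chr7:75114894-75309262, minus strand) was the lowest of all 35 genes and the single gene that missed the detection threshold, with 1.04 TPM in pool 1 and 0.55 TPM in pool 2. Its expected counts were 162 (exact Poisson 95% interval 138 to 189) in pool 1 and 82 (65 to 102) in pool 2, so it was measured above 0 in both. Sncb, beta-synuclein, a small presynaptic protein of the adult brain, had 1.69 TPM in pool 1 and 1.71 TPM in pool 2, from 56 (42 to 73) and 52 (39 to 68) expected counts. These intervals cover counting error only, since amplified reads are not independent molecules.

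Rab3 proteins are the small GTPases that bring vesicles to the active zone, and Rab3a is the main form of mature brain. Rab3a had 71.0 TPM in pool 1 and 63.1 TPM in pool 2 (67.0 ± 5.65, SD, n = 2). Rab3b had 26.5 TPM in pool 1 and 24.9 TPM in pool 2, and Rab3c had 11.3 TPM in pool 1 and 13.3 TPM in pool 2. All 3 levels were apart by more than the spread between pools. Of the summed TPM of these 3, the shares were 63.8% ± 2.10 for Rab3a, 24.5% ± 0.166 for Rab3b and 11.7% ± 1.94 for Rab3c (SD, n = 2 each). Per length Rab3a led, but by expected counts Rab3c did, since its model of 8500 nt drew 2786 counts in pool 1 and 3149 in pool 2 against 2663 and 2255 for Rab3a.

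**Figure D2:**
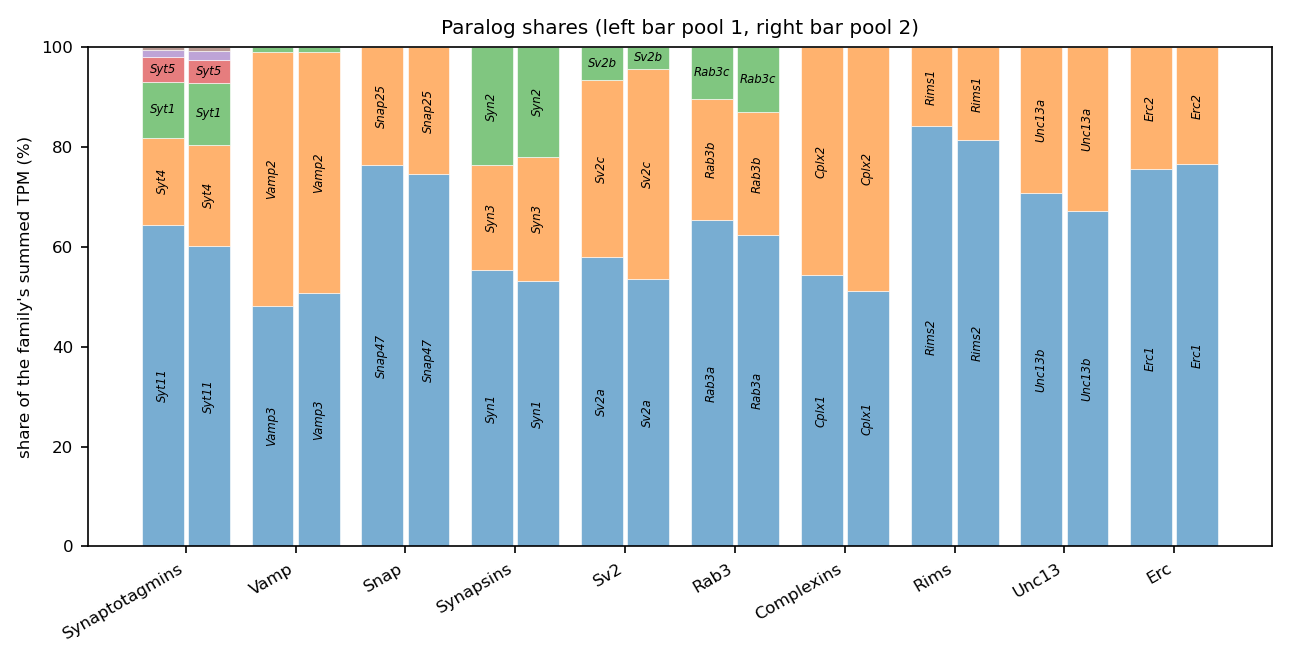
Share of each family's summed TPM (percent, axis from 0 to 100) held by each gene in 10 small families, with the left bar of each pair for pool 1 and the right bar for pool 2. Each family holds only its genes among the 35, so relatives on the further lists are left out of the sums. These include Vamp4 at 52.2 and 49.3 TPM, Snap23 at 35.4 and 37.9 TPM and Syt13 at 18.8 and 10.6 TPM in pool 1 and pool 2. Among the genes counted, a single gene holds over 60% in the synaptotagmin, Snap, Rab3, Rims, Unc13 and Erc families in both pools. In the Vamp and complexin families 2 of the genes counted hold nearly even shares.

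The scaffolds and priming factors of the active zone, the dense protein meshwork at release sites, had a median of 6.06 TPM in pool 1 and 7.38 TPM in pool 2 over 8 genes. Erc1 (ENSMUSG00000030172, chr6:119570796-119848167, minus strand), a broadly made ELKS scaffold, led with 20.7 TPM in pool 1 and 28.1 TPM in pool 2 (24.4 ± 5.24, SD, n = 2). Its brain-enriched relative Erc2, also called CAST, had 6.71 TPM in pool 1 and 8.62 TPM in pool 2. Erc1 thus held 76.0% ± 0.724 of the Erc TPM (SD, n = 2).

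Unc13b, the Munc13-2 priming factor, had 13.1 TPM in pool 1 and 12.6 TPM in pool 2. Unc13a, the Munc13-1 form on which release at most mature excitatory synapses depends, had 5.41 TPM in pool 1 and 6.14 TPM in pool 2. The RIM scaffolds, which bind Rab3, Munc13 and calcium channels, were also divided unequally. Rims2 had 8.13 TPM in pool 1 and 10.1 TPM in pool 2, and Rims1 had 1.54 TPM in pool 1 and 2.30 TPM in pool 2. Rims2 held 82.7% ± 1.91 of the TPM of the pair, and Unc13b 69.0% ± 2.55 of the Unc13 pair (SD, n = 2 each).

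The giant scaffolds were low. Bsn, bassoon, had 2.90 TPM in pool 1 and 3.08 TPM in pool 2. Pclo, piccolo, had 2.26 TPM in pool 1 and 3.16 TPM in pool 2. Bsn and Pclo did not differ beyond the spread of Pclo (2.71 ± 0.636 TPM, SD, n = 2). With models over 10 kb in length their levels still rested on 974 and 1060 expected counts for Bsn and 826 and 1169 for Pclo.

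The split of each gene into transcripts was described for the 17 genes whose mean TPM reached 10. In 16 of these the same transcript led in both pools, and it was protein-coding each time. The plot of transcript levels shows 6 of the genes. Vamp2-201 held 72.6% in pool 1 and 68.6% in pool 2, Rab3a-201 held 73.3% and 72.5%, and Syt11-201 held 77.2% and 77.3%. Cplx1, Rab3c and Syt4 had all of their TPM on a single transcript.

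Stx1a had less than 50% of its TPM on its main coding transcript. Stx1a-201 held 40.0% in pool 1 and 48.2% in pool 2. Stx1a-204, annotated as a target of nonsense-mediated decay, held 37.5% in pool 1 and 33.1% in pool 2. Stx1a-203, annotated with no reading frame, held 18.6% in pool 1 and 17.4% in pool 2. Nonsense-mediated decay is the pathway that degrades mRNAs with a premature stop codon.

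Erc1 was the gene whose leading transcript changed between the pools. The coding Erc1-203 held 45.7% in pool 1 (9.45 TPM) and 23.2% in pool 2 (6.52 TPM). Erc1-209, annotated as a target of nonsense-mediated decay, held 1.74% in pool 1 (0.36 TPM, 43 expected counts) and 28.4% in pool 2 (7.98 TPM, 931 expected counts). The authors' intervals for the TPM of Erc1-209 did not overlap, at 0.00918 to 1.76 in pool 1 and 6.46 to 9.39 in pool 2.

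**Figure D3:**
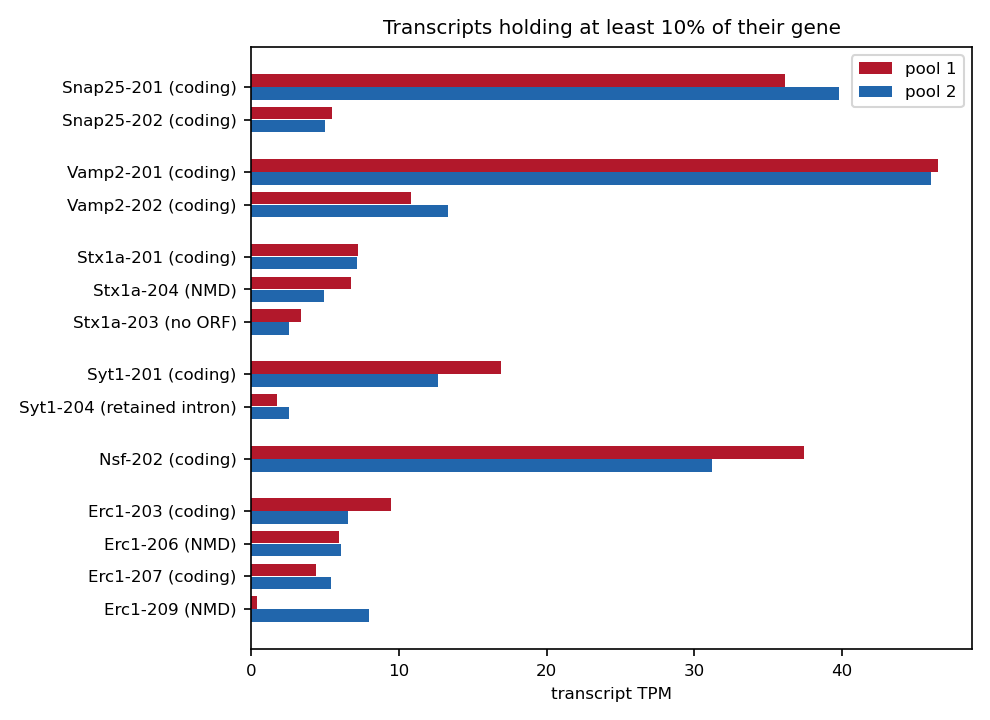
Transcript TPM in pool 1 (red bars) and pool 2 (blue bars) for 6 genes, with each transcript's annotated class in brackets (NMD, target of nonsense-mediated decay; no ORF, no open reading frame). Erc1-209 is near 0 in pool 1 and at 7.98 TPM in pool 2, while the Snap25, Vamp2 and Stx1a transcripts keep their order in both pools.

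Transcripts annotated as retained introns, which keep an intron and mostly do not give the full protein, held 3.02% of the 35 genes' TPM in pool 1 and 4.58% in pool 2. Over expressed protein-coding genes they held 5.05% and 5.82%. Nsf had 9.79% of its TPM on such transcripts in pool 1 and 24.8% in pool 2, so that its coding transcript Nsf-202 had 37.4 TPM in pool 1 and 31.2 TPM in pool 2 although the gene's total was equal. Unc13a had 55.2% and 60.4% on retained introns, the highest of the 35 genes in both pools. It also shares 495 exon bases with Colgalt1 on the opposite strand, a gene at 31.1 TPM in pool 1 and 27.3 TPM in pool 2. Of 16 release genes with such a transcript, 11 had the lower retained-intron share in pool 1, which is 68.8%, against 68.6% of 5255 protein-coding genes.

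The pools differed little for most genes. The ratio was taken as log2 of TPM plus 1 in pool 1 over that in pool 2, and set relative to the median gene, which lay at 0.11 before centring. None of the 34 genes whose mean TPM reached 1 was more than 1.5-fold apart, where 5.98% of the 14942 genes at that level were, 4.35% lower and 1.63% higher in pool 1. At 1.25-fold, a limit chosen after the values were seen, 8 were lower in pool 1 and 0 higher, where 13.1% of all genes were lower and 6.6% higher. With a pseudocount of 0.1 Rims1 passed 1.5-fold at -0.67, with TMM or DESeq2 scaling of expected counts Pclo did at -0.69, and without centring 3 genes were lower and 1 higher past 1.25-fold, where 8.22% and 14.0% of all genes were. Sv2b, whose mean TPM was below 1, was at 0.29 and is not in these counts, and it was at 0.69 with the smaller pseudocount, at 0.78 with TMM and at 0.79 with DESeq2 scaling. Of all 35, 24 lay below the median gene and 11 above it. The median ratio over the 34 was -0.11. For genes with 300 to 1000 counts the SD of the ratio was 0.26, and for 1000 to 3000 counts it was 0.22. Since 1 is added to each TPM, the ratio understates differences of the lowest genes.

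**Figure D4:**
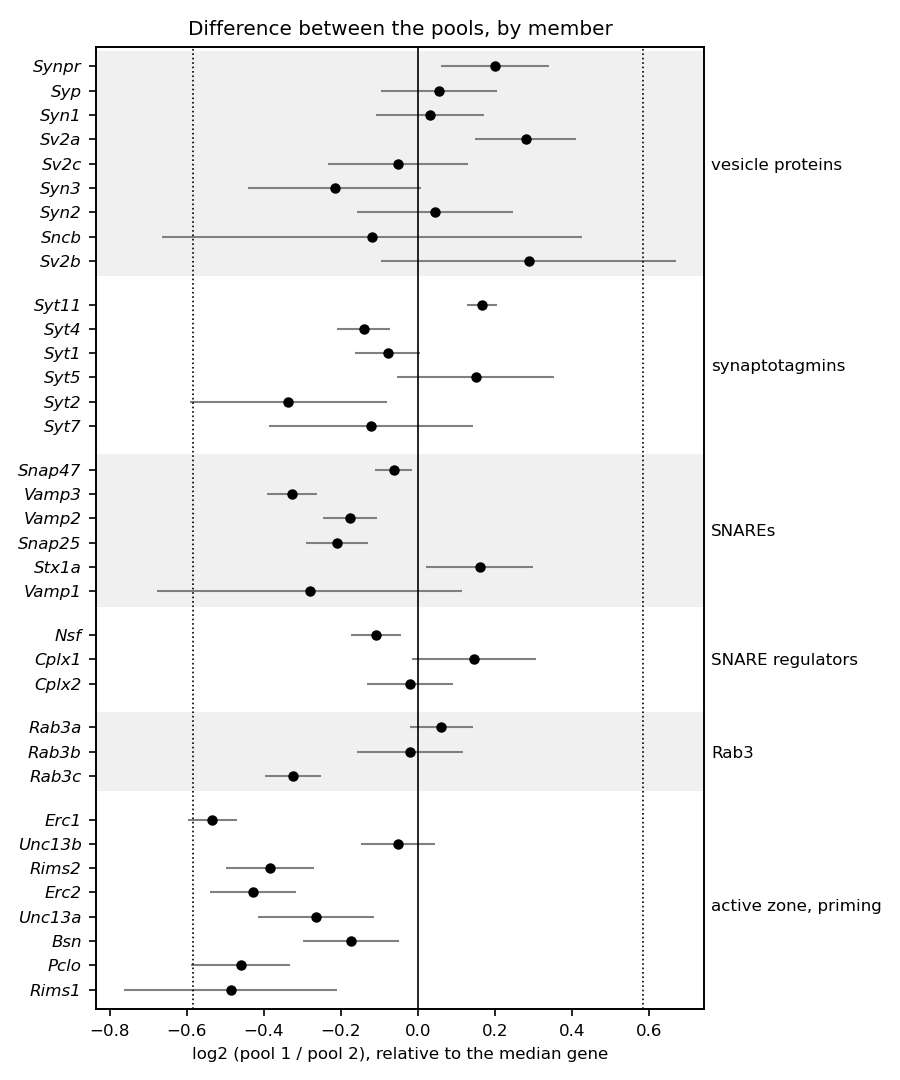
Log2 ratio of pool 1 over pool 2 for each of the 35 genes relative to the median gene (solid line at 0), with bars of 1.96 counting standard errors and dotted lines at 1.5-fold. All 8 active zone and priming genes lie left of the solid line (7 with TMM scaling, 6 with protein-coding transcripts only) with Erc1 lowest at -0.53, whereas vesicle proteins and synaptotagmins lie on both sides.

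The roles differed in where they lay. All 8 active zone and priming genes were below the median gene in pool 1 (7 with TMM scaling, 6 with protein-coding transcripts only), by definition the place of 50% of all genes, with a median of -0.41. Erc1 was at -0.53 (counting SE 0.0327), Rims1 at -0.49 (0.141), Pclo at -0.46 (0.0656), Erc2 at -0.43 (0.0565) and Rims2 at -0.38 (0.0586). Unc13a at -0.26, Bsn at -0.17 and Unc13b at -0.05 were closer to it. Erc1 lay beyond 2 SD of genes with 3000 to 15000 counts (SD 0.19), and Rims1 within 2 SD of genes with 100 to 300 counts (SD 0.31). The SNAREs were mostly below as well, 5 of 6 with a median of -0.19, led by Vamp3 at -0.33. Of the vesicle proteins other than Sv2b 3 of 8 were below, with a median of 0.04, and Sv2a was highest of these at 0.28. Of the synaptotagmins 4 of 6 were below, with a median of -0.10, from Syt2 at -0.34 to Syt11 at 0.17.

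Some of these directions rested on the unit. With expected counts scaled by TMM, Unc13b was at 0.03, Syt2 at 0.05, Syt1 at 0.07, Nsf at 0.07, Sv2c at 0.03 and Syp at -0.03, each on the other side of the median gene, while the other 29 genes kept their side under the pseudocount, FPKM, TMM and DESeq2 alternatives. Counting protein-coding transcripts only, Erc1 was at 0.03 and Unc13b at 0.15. Syt1, Nsf, Stx1a and Sncb also changed side, to 0.20, 0.15, -0.09 and 0.03. The average RNA length the authors' tables assigned to Syt2 was 4327 nt in pool 1 and 3074 nt in pool 2, and that of Erc1 was 6305 and 5171 nt, and TPM depends on this length.

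Most of the active zone genes span over 100 kb, and long genes in general lay lower in pool 1. Unc13a, at 47.3 kb, and Bsn, at 94.4 kb, are shorter. Expressed protein-coding genes of under 10 kb of genomic span had a median ratio of 0.02, with 44.6% below the median gene. Those of 30 to 100 kb had a median of 0.01 with 47.6% below. Those of 100 to 300 kb had a median of -0.07 with 60.2% below, and those over 300 kb a median of -0.19 with 73.7% below. Of the 7 release genes over 300 kb, 6 were below, with a median of -0.38. Among the genes with RNA models over 6000 nt 73.2% were below, including all 5 release genes of that size. Markers of sensory ganglia and neural crest summed to 186 TPM in pool 1 and 139 TPM in pool 2, with all 7 detected, none at 0, a median ratio of 0.29, and Pou4f1 highest at 53.1 and 38.1 TPM. The part of gene length, of RNA quality and of neighbouring tissue in the dissection in these differences was not tested.

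**Figure D5:**
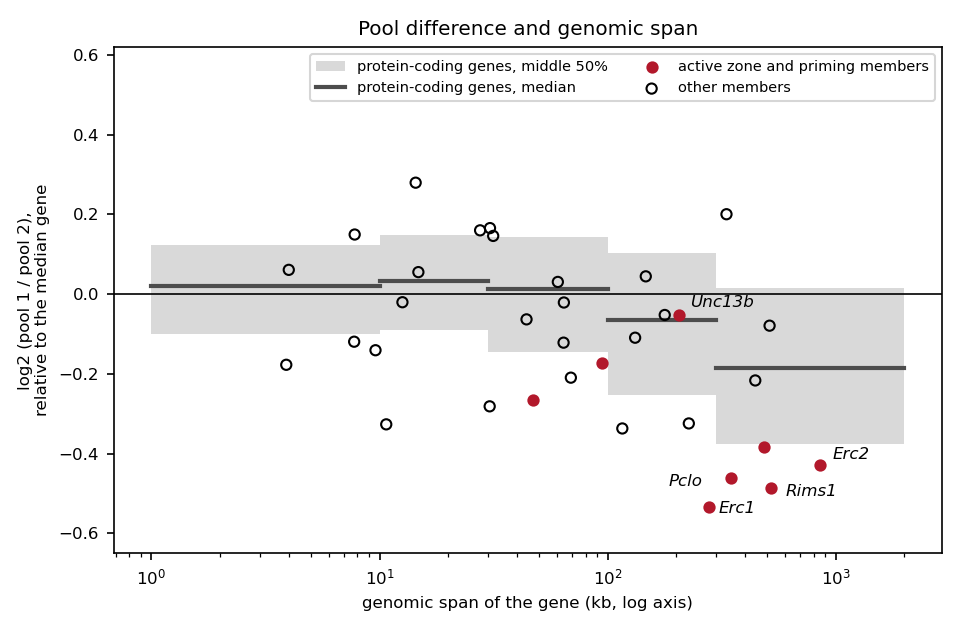
Log2 ratio of pool 1 over pool 2 relative to the median gene, against genomic span in kb (log axis), for the 34 release genes whose mean TPM reached 1, with active zone and priming genes filled red and the others open, over the median (dark line) and middle 50% (grey) of expressed protein-coding genes in 5 bins of span. The background median falls to -0.19 above 300 kb, and Pclo, Rims1, Rims2 and Erc2 lie below the grey box of that bin, while Erc1, Rab3c and Syt2 lie below that of the 100 to 300 kb bin. Of the shorter genes Vamp3, Snap25, Vamp1, Unc13a, Bsn, Vamp2, Syt4 and Sncb also lie below their boxes.

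Promoter sequence of 250 bases before to 50 bases after the start was given by RefSeq (GRCm38.p6) for 27 of the 35 genes. Rims2, Snap25, Syn3, Syt4, Syt5, Syt7, Vamp2 and Vamp3 had no entry. The median GC content of the 27 windows was 63.7%, with a median of 20 CpG dinucleotides in 300 bases. Promoters of expressed protein-coding genes had a median of 21 and those of unexpressed ones a median of 3. The release genes ranged from 8 CpG, in Rab3b and Syt1, to 46 in Erc1.

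The most CpG-rich window and that of the least expressed gene are shown. The Erc1 window, chr6:119848101-119848400 on the minus strand, holds 46 CpG. The Sv2b window, chr7:75309213-75309512 on the minus strand, holds 10. CpG dinucleotides are in capitals in both.
Erc1 promoter: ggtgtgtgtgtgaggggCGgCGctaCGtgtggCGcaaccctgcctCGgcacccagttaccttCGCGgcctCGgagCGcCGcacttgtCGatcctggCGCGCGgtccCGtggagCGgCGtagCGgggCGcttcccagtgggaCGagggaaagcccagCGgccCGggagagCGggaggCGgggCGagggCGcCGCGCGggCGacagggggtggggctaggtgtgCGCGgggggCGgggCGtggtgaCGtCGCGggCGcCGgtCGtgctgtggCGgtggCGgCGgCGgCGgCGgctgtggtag
Sv2b promoter: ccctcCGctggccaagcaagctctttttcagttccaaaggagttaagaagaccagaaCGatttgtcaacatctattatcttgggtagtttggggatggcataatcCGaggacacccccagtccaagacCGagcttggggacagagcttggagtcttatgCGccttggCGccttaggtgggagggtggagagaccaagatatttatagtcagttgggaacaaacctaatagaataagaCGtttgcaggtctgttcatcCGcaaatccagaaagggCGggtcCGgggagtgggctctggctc

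The Syn1 promoter is shown because it is a textbook neuronal promoter. It holds the cAMP response element TGACGTCA and the letters TCAGCACC, which are part of the element bound by the neuronal repressor REST. The Syn1 window is chrX:20920869-20921168 on the minus strand, with both motifs in capitals.
Syn1 promoter: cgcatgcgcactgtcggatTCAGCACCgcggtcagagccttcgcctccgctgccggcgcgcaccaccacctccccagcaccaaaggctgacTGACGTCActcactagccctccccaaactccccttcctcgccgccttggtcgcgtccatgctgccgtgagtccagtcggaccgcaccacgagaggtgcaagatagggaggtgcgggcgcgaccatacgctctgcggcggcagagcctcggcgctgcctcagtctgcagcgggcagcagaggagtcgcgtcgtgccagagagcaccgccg

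On either strand, TGACGTCA was in 1 of the 27 release windows, that of Syn1, and in 1.85% of all 27025 promoters. TCAGCACC was in 2 of the 27, those of Syn1 and Unc13a, and in 1.6% of all. The motifs do not overlap each other, and a match of letters is a description only.

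The genes that act with the release machinery were mostly expressed as well. Over 9 further lists, 71 of 82 matched genes were detected in both pools, with a median of 8.66 TPM in pool 1 and 8.18 TPM in pool 2. Other SNAREs were all detected (8 of 8, with Vamp7 not analysed here), from Vamp4 at 52.2 and 49.3 TPM and Snap23 at 35.4 and 37.9 TPM to Stx3 at 4.66 and 5.11 TPM in pool 1 and pool 2. These are the SNAREs of endosomal and constitutive traffic.

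Of 12 further SNARE regulators 10 were detected. Napa, the alpha-SNAP adaptor through which Nsf grips SNARE complexes, had 128 TPM in pool 1 and 114 TPM in pool 2, and Snapin, a binding partner of SNAP-25, had 58.1 and 48.9 TPM. Cplx4, a complexin known from the retina, had 0 counts in both pools, which allows up to 3 counts in each.

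Further vesicle proteins were all detected (11 of 11), led by Tprgl, the vesicle-associated protein Mover, at 105 TPM in pool 1 and 96.7 TPM in pool 2 and gamma-synuclein, Sncg, at 114 and 84.5 TPM, with Syngr1 lowest at 6.68 and 4.99 TPM. Sncg thus stood far above its relative Sncb. Of 11 further synaptotagmins and calcium sensors 8 were detected. Syt13, a synaptotagmin that lacks calcium binding, had 18.8 TPM in pool 1 and 10.6 TPM in pool 2 and was the gene of that list past 1.5-fold, at a ratio of 0.66. Syt14 had 5.52 TPM in pool 1 and 5.71 TPM in pool 2, and Doc2b, a calcium sensor for spontaneous release, had 0.18 and 0.42 TPM.

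The further genes listed for the Rab3 cycle were all detected (8 of 8). The exchange factor Rab3il1 had 26.7 TPM in pool 1 and 24 TPM in pool 2, and its relative Rab3ip had 26.1 and 21.3 TPM. The effector Rph3al was lowest at 1.07 and 1.5 TPM. Further active zone and priming genes were detected in 7 of 11 cases. Ppfia1, a liprin-alpha scaffold, had 23.5 TPM in pool 1 and 20.9 TPM in pool 2, Cadps, the CAPS priming factor of dense-core vesicles, had 8.51 and 9.52 TPM, and Unc13c had 0.21 and 0.23 TPM. Of the 7 whose mean TPM reached 1, 4 were below the median gene in pool 1 with a median ratio of -0.08.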

How the data were processed

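For each library the authors deposited gene and transcript tables of total RNA-seq. Per the file headers these hold an expected count, that is an estimated and often fractional read number, next to TPM, FPKM and lower and upper TPM bounds of unstated level. Deposited TPM is relative to all entries, spike-ins included. The build was mm10 (GRCm38) and the annotation GENCODE M4, per the labels and the readme. Not given in the sources used here were the aligner, quantification tool and strand setting. Names and coordinates (1-based) came from GENCODE vM21, which matched 42462 of 43346 Ensembl identifiers.

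The labels place both samples in 1 group and call them biological replicates, so means and SDs are over 2 pools and no p-value was computed. Detection meant reaching 1 TPM in each of the pools. Ratios were differences in log2(TPM + 1), pool 1 minus pool 2, from which the median over genes whose mean TPM reached 1 was subtracted, with 1.5-fold as the limit. Exact Poisson 95% intervals, on expected counts rounded to whole numbers, cover counting error only. Share values in percent of TPM were computed from the deposited TPM of genes or transcripts.

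All 35 genes were named. Of the further lists, the 2 highest and the 1 lowest by mean TPM were named, with any gene past 1.5-fold whose mean TPM reached 5, and of the marker lists the highest and any at 0. A gene that this rule selects is not reported here. The 35 genes and all lists were chosen with earlier results of these data known. Alternatives were a pseudocount of 0.1, FPKM, no centring, TMM (edgeR 4.0.16) and DESeq2 1.42.0 size factors on rounded expected counts in R 4.3.3, other filters, protein-coding transcripts and each replicate alone. Tables were handled in Python 3.11.15 with pandas 2.3.3 and NumPy 2.4.6, intervals came from SciPy 1.17.1 and plots from Matplotlib 3.10.9. The ratio step was tested on simulated data whose changes were larger than 1.5-fold. Changes near the 1.5-fold and 1.25-fold limits were not simulated.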

Additional observations from a re-analysis of the deposited data

How the results depend on the processing

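The median level of the 35 genes, 9.50 TPM, ranged from 9.41 to 9.60 with either replicate left out, and was 13.6 with TPM rescaled over protein-coding nuclear genes, 6.34 in FPKM and 10.9 as a geometric mean. The number of release genes past 1.5-fold between pools, 0 of the 34 without Sv2b, was 1 with a pseudocount of 0.1 (Rims1 at -0.67), 1 with TMM scaling and 1 with DESeq2 size factors (Pclo at -0.69 in both), where 9.74%, 8.91% and 9.31% of all genes passed; the cause was not tested. Sv2b, left out for its low mean TPM, moved from 0.29 to 0.69, 0.78 and 0.79 under these settings. Past 1.25-fold, 8 were lower and 0 higher in pool 1, against 3 lower and 1 higher without centring, which adds 0.11 to every ratio (8.22% and 14.0% of all genes). Detected genes numbered 34 to 35 with either replicate left out. They numbered 25 at a TPM of at least 5, a threshold at which the share of all genes was not computed. Active zone genes below the median gene numbered 6 to 8 over the alternatives tried. The median ratio over the release genes ran from -0.13 to -0.01. The leading gene was the same in 9 to 10 of 10 families with either replicate left out, and in 8 by expected counts. A pool ratio could not be recomputed with a replicate left out. Depth limits Sncb, Sv2b and Vamp1 most. No paired analysis was possible because the series holds 1 group.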

Other observations

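The machinery that loads and recycles vesicles was also expressed. Of 6 transporters that fill vesicles with transmitter 4 were detected in both pools. Slc17a6, the vesicular glutamate transporter VGLUT2, had 24.4 TPM in pool 1 and 20.7 TPM in pool 2, and Slc18a2, which loads monoamines, had 13.5 and 11.7 TPM. Slc17a7, the VGLUT1 of mature cortex and cerebellum, was lowest with 0.69 TPM in pool 1 and 0.30 TPM in pool 2. All 10 genes of vesicle endocytosis were detected, with a median of 14.5 TPM in pool 1 and 17.2 TPM in pool 2. The scaffold Itsn1 led with 45.5 and 41.5 TPM, followed by the membrane-bending Bin1 with 37.2 and 38.1 TPM, and its relative Amph was lowest with 8.0 and 7.85 TPM.

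All 5 genes of presynaptic calcium channels were detected, with a median ratio of -0.60. In pool 1, 4 of them were below the median gene, by definition the place of 50% of all genes. Cacna1a, the pore of P/Q-type channels, had 3.88 TPM in pool 1 and 7.2 TPM in pool 2, a ratio of -0.86. Cacna1e, the pore of R-type channels, had 1.49 TPM in pool 1 and 2.59 TPM in pool 2, a ratio of -0.64. The auxiliary subunit Cacna2d1 was the most abundant with 13.0 TPM in pool 1 and 12.2 TPM in pool 2, a ratio of -0.02. Of the 5, 3 were past 1.5-fold lower in pool 1, where 4.35% of all genes whose mean TPM reached 1 were. These 3 genes are long, with Cacna1a at 252 kb of genomic span, Cacna1e at 494 kb and Cacna1b at 159 kb, and so is Cacna2d1 at 440 kb. Ratios of these genes under other scalings are not given. Cacna1b, at 2.2 TPM in pool 1 and 3.49 TPM in pool 2 with a ratio of -0.60, was named after its values were seen. The part of gene length in these ratios was not tested.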
